A study of Homo sapiens with 8 samples.

Results

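The promoters of isolated long non-coding RNA (lncRNA) genes were examined for accessible chromatin in U2OS cells, a human osteosarcoma line. An isolated lncRNA gene was one of GENCODE release 44 whose transcription start site (TSS) lay more than 5 kb from the TSS of every protein-coding gene, on chromosomes 1 to 22 and X of the human genome build hg38. Its promoter window reached 500 bp to either side of the TSS. Of 18755 lncRNA genes, 14453 were isolated and 4302 lay within 5 kb of a protein-coding TSS, and 1 lncRNA gene was set aside by the definition. The members were the accessible regions that overlapped an isolated window by at least 1 bp, 27929 of the 1435500 regions in the 8 lists of peaks, or between 3247 and 3865 regions per list.

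Open chromatin was mapped by ATAC-seq, a method that lets the Tn5 transposase place adapters in accessible DNA. The 8 libraries came from wild-type (WT) U2OS cells and from U2OS cells with a CRISPR/Cas9 disruption of ASH1L (ASH1L-/-), a histone methyltransferase that the study examined in the repair of ultraviolet (UV) damage. Cells of each genotype were either unchallenged or harvested 3 h post UV-C irradiation at 20 J/m2, with 2 biological replicates in each of the 4 groups. The ASH1L-/- cells had been isolated as single colonies, and the labels do not give the number of clones, so that the genotype and the clone cannot be told apart. Cells of all 4 groups were treated with DNase before harvest, which removes free DNA and that of dying cells.

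A region is a distinct interval of a list, and its value is the fold enrichment at its summit, the pileup of reads over the local background of the same library. Fold enrichment was not normalised between libraries, so each region was given its percentile among all regions of its own list, where 100 is the strongest. Where several regions reached a window, the strongest was used. The mean pileup, a relative measure of depth, was between 1.39 and 5.87 in the 8 libraries, and replicate 1 of unchallenged ASH1L-/- cells was the deepest and replicate 2 the shallowest. As a check of the cell type, the promoters of RUNX2 and VIM, genes of mesenchymal cells, carried a region in 8 lists, that of COL1A1 in 7 and that of COL1A2 in 5, and that of TWIST1 in 0. The promoters of PTPRC, CD3E, ALB and INS, genes of blood, liver and pancreas, carried a region in 0 lists, and that of the glial gene GFAP in 8. The ASH1L promoter had a region in all 8 lists and does not check the knockout, because the guides targeted exons.

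LncRNA genes are transcribed by RNA polymerase II like protein-coding genes, and many of them are expressed in few tissues. A large share of lncRNA genes starts beside a protein-coding gene, often on the opposite strand of the same promoter, where open chromatin cannot be assigned to either gene. The distance limit is set against this case and uses 1 TSS per gene. Of the isolated promoters with a region in all 8 lists, 2020 in number, 1666 also lay more than 5 kb from every annotated transcript start of a protein-coding gene. Promoters of broadly active genes commonly lie in CpG islands, stretches rich in G, C and CpG dinucleotides, whereas distal regulatory elements are usually poor in CpG and are often bound by AP-1, a factor of the FOS and JUN families that recognises the letters TGACTCA.

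The hg38 sequences of 5 isolated promoters are given first because they carry the contrasts described afterwards. Where a rank is stated, it is among genes with a symbol. Each is the 300 bases around the summit of the strongest region, on the forward strand, with AP-1 letters (TGACTCA, or TGAGTCA on the opposite strand) and GC box letters (GGGCGG, or CCGCCC on the opposite strand) in capitals. In the 300 bases around the summit, AP-1 letters stood in 8.39% of the 23935 promoters of any class with a region and GC box letters in 45.8%. Such a match describes the letters and is not evidence of binding.
LINC02226, chr5:8457406-8457705, the highest mean percentile, in a CpG-rich window: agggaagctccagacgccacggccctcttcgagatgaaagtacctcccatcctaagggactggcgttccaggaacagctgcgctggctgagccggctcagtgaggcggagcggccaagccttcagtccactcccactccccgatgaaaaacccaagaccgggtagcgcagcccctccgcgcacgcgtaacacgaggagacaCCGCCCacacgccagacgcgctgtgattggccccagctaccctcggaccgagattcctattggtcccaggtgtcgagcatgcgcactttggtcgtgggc
LINC01392, chr7:115231057-115231356, also among the highest, with 0 CpG dinucleotides: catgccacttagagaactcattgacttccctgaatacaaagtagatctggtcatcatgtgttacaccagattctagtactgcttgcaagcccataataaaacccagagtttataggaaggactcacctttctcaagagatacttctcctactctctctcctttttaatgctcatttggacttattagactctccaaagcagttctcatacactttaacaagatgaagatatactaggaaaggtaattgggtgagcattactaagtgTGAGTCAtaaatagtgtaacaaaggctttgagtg
LINC01036, chr1:187070130-187070429, a region in the 4 UV lists only: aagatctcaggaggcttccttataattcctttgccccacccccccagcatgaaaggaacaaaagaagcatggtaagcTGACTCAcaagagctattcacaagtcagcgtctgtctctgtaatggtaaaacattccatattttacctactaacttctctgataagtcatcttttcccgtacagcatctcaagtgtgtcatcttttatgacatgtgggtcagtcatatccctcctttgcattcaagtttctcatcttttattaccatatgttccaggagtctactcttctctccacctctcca
LINC01836, chr19:782392-782691, a lower percentile after UV: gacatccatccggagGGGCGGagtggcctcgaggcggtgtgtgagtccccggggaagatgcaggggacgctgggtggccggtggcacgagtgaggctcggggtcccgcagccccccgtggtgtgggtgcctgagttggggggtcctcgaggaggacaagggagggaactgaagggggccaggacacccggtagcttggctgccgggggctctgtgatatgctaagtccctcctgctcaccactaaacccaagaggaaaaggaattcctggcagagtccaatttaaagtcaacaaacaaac
ZNF876P, chr4:212513-212812, a region in the 4 ASH1L-/- lists only: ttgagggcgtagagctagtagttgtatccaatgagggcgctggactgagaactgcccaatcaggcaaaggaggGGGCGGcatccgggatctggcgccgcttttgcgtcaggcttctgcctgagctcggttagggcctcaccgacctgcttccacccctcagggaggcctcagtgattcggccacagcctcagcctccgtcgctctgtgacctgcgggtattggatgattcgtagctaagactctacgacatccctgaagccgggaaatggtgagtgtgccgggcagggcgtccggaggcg
The LINC02226 sequence held 25 CpG dinucleotides and 63.7% G or C, and that of LINC01392 held 38.3% G or C. LINC01036 had 1 match to the AP-1 letters and 2 CpG dinucleotides, whereas ZNF876P had 0 AP-1 matches, 20 CpG dinucleotides and 1 GC box match. LINC01836 had 14 CpG dinucleotides and 1 GC box match.

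Most isolated promoters had no region in the window around the gene-level TSS. Other annotated starts of the same lncRNA genes were not examined. A region was found in at least 1 list at 6111 isolated promoters (42.3%), in exactly 1 list at 1755, and in all 8 lists at 2020 (14.0%), while 8342 (57.7%) had no region in any list. The corresponding share in all 8 lists was 49.0% for lncRNA promoters within 5 kb of a protein-coding TSS and 51.7% for 19970 protein-coding promoters. Of the isolated promoters with any region, 33.1% had it in all 8 lists, against 69.7% of such protein-coding promoters. The 2020 promoters used 1870 distinct sets of regions, because 290 of them shared every strongest region with another isolated promoter.

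Of the isolated promoters, 21.6% and 23.1% carried a region in the WT libraries without UV, and 22.1% and 23.6% in those harvested after UV. The ASH1L-/- libraries had shares of 25.1% and 21.7% without UV, and 23.3% and 25.6% after it. The libraries with and without UV overlapped, and so did those of the genotypes, while both values of ASH1L-/- cells after UV were above both of WT cells without UV. The highest value without UV came from the deepest library. Protein-coding promoters lay between 58.4% and 63.7% and lncRNA promoters within 5 kb between 55.7% and 62.7% in the same libraries. Isolated promoters were therefore lower by 37.9 ± 1.20 percentage points than protein-coding promoters (SD over 8 libraries, p = 0.0078, exact permutation of the sign of the 8 differences, two-sided, the smallest p that test can give). Against lncRNA promoters within 5 kb they were lower by 35.7 ± 1.93 points (SD, n = 8, same exact test, p = 0.0078), and both differences had the same direction in 8 of 8 libraries.

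**Figure D1:**
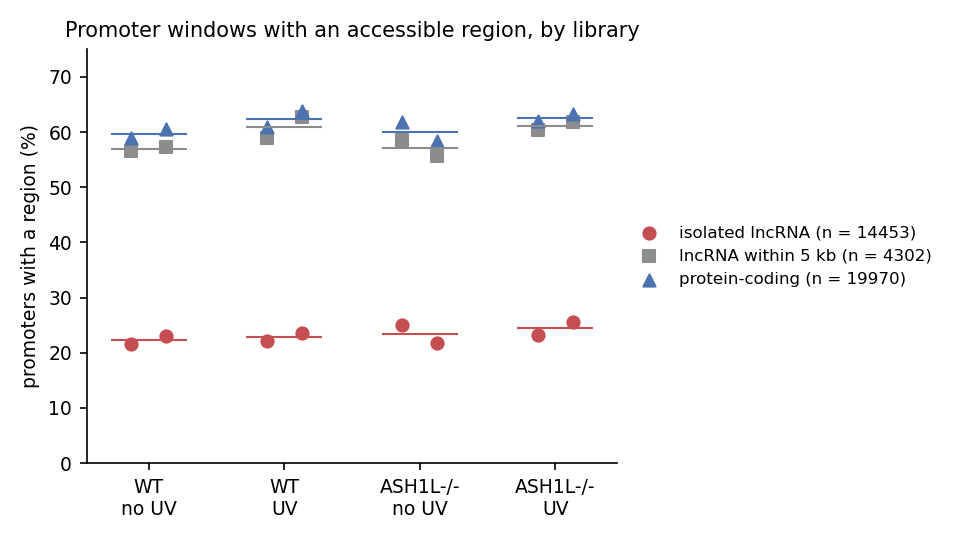
Share of promoter windows with an accessible region (percent, y axis) in each of the 8 libraries, by group (x axis); points are libraries and lines are the means of 2. The isolated lncRNA promoters sit between 21.6% and 25.6% in all libraries, below the protein-coding promoters at 58.4% to 63.7% and the lncRNA promoters within 5 kb of a protein-coding TSS.

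The sequence of the window moved with this difference. A window was called CpG island-like where its GC share was at least 50% and its CpG count at least 0.6 of that expected from its C and G content. By this measure 9.56% of isolated windows were CpG island-like, against 58.8% of windows of lncRNA genes within 5 kb and 58.0% of protein-coding windows. Of the 1382 CpG island-like isolated promoters, 51.6% had a region in all 8 lists, and of the other 13071 isolated promoters 10.0%. For protein-coding promoters the shares were 72.7% and 22.7%. The next differences are in the share with a region in each library, not in all 8 lists. Among CpG island-like windows, isolated promoters were lower than protein-coding promoters by 20.1 ± 0.864 points, and among the others by 14.5 ± 0.473 points (SD over 8 libraries, lower in 8 of 8 libraries, exact permutation p = 0.0078 for both, an analysis added after the data were seen). Against lncRNA promoters within 5 kb the differences were 17.4 ± 1.03 and 12.2 ± 1.61 points (exact permutation p = 0.0078 for both, n = 8).

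**Figure D2:**
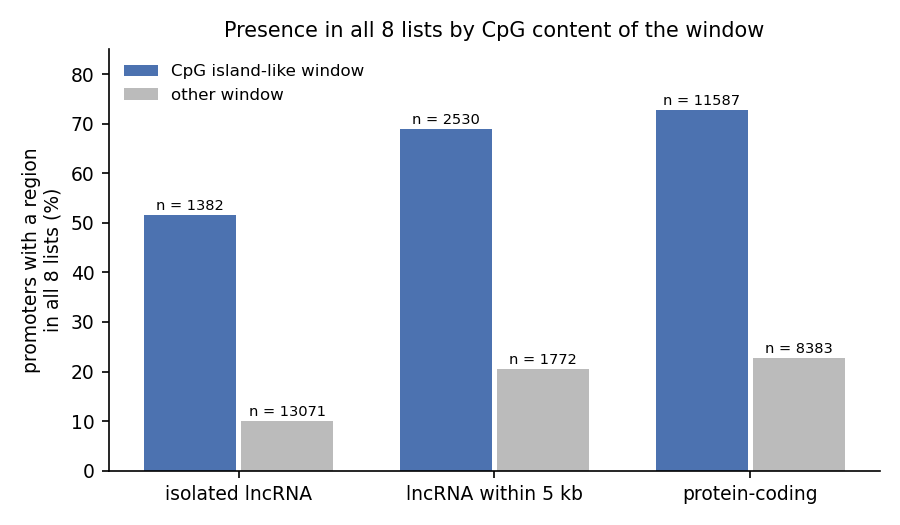
Share of promoters with a region in all 8 lists (percent, y axis) by promoter class (x axis) and by CpG content of the window (bar colour), with the number of promoters above each bar. Isolated lncRNA promoters reach 51.6% with a CpG island-like window and 10.0% without one, and both bars are below those of protein-coding promoters at 72.7% and 22.7%.

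Other features of the window sequence, which the definition did not use, also varied with the number of lists. The median GC share of the window was 43.0% at isolated promoters with no region, 47.2% with a region in 1 to 3 lists, 49.2% in 4 to 7 lists and 54.3% in all 8 lists. GC box letters stood in 20.0%, 25.3%, 35.4% and 58.5% of these windows, and the letters TATAAA on either strand in 55.3%, 43.1%, 39.3% and 30.8%. TATAAA thus became rarer and GC boxes commoner as the windows became richer in G and C. Over all 38725 windows, GC box letters stood in 55.5% and TATAAA in 34.8%. The median width of the strongest region was 204 bp in 1 to 3 lists, 432 bp in 4 to 7 lists and 662 bp in all 8 lists. At protein-coding promoters with a region in all 8 lists it was 685 bp. Width, read in the library with the highest percentile, is not independent of the number of lists, because a wider region reaches a window more readily.

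The summit of the strongest region lay a median of 166 bp from the TSS at the 2020 isolated promoters and 157 bp at protein-coding promoters with a region in all 8 lists. Summits lay upstream of the TSS in 50.8% of these isolated and 57.0% of these protein-coding promoters, and within 100 bp of it in 27.2% and 28.1%. The plot of summit positions has a maximum on each side of the TSS for both classes.

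**Figure D3:**
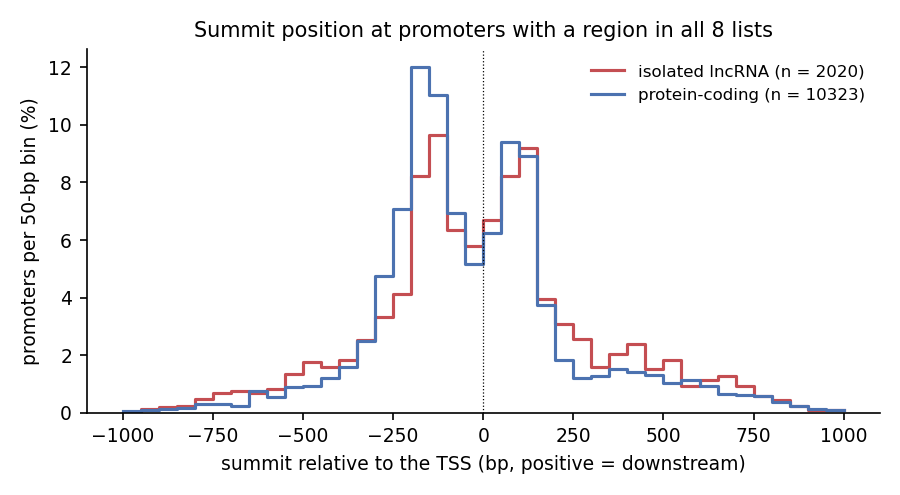
Distance from the TSS to the summit (bp, x axis, positive downstream) in bins of 50 bp, as the percent of promoters with a region in all 8 lists (y axis), for 2020 isolated lncRNA and 10323 protein-coding promoters. Both lines have 2 maxima with a dip at the TSS, and the isolated promoters have fewer summits upstream of the TSS (50.8% against 57.0%).

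The position of the gene and its kind of name were related to presence. Of the isolated TSSs, 9442 lay outside protein-coding genes, and 15.3% of these had a region in all 8 lists. The share was 13.3% of the 3672 TSSs within a protein-coding gene on the opposite strand and 6.80% of the 1339 on the same strand. Isolated genes named as divergent transcripts (DT) had a region in all 8 lists in 75.9% of 29 cases and host genes of small RNAs (HG) in 35.96% of 89. The share was 17.3% of 2123 genes with a LINC name, 18.2% of 1061 antisense genes (AS) and 11.8% of 10419 genes without a symbol. CpG island-like windows were found in 62.1% of the DT, 35.96% of the HG, 9.23% of the LINC, 15.6% of the AS and 7.65% of the unnamed genes, an order in which the DT and HG genes again came first. Across chromosomes, the share with a region in all 8 lists ranged from 9.52% on chromosome 4 to 17.4% on chromosome 7. At the distance limit itself, ZNF32-AS1 at 5009 bp from a protein-coding TSS had a region in 2 lists and PRRT3-AS1 at 5004 bp in 0, and LILRB1-AS1 at 4997 bp and LINC02924 at 4947 bp, just outside the definition, had 0.

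The 10 strongest isolated promoters were chosen by their mean percentile over the 8 libraries and are given as a description. LINC02226 had the highest mean percentile of the ranked genes, with percentiles between 99.93 and 99.999 and a fold enrichment of 23.4 to 29.2. Its TSS is on chromosome 5 at position 8457558 on the minus strand, outside any protein-coding gene and 588521 bp from the nearest protein-coding TSS, that of FASTKD3. The others of the 10 were LINC03021, RDH10-AS1, EBLN3P, ANKRD20A11P, LINC01392, LINC01446, MPP7-DT, GNA15-DT and LINC01409. EBLN3P is a pseudogene that descends from an ancient bornavirus insertion. None of the 10 fell below a percentile of 97.2 in any library, although percentiles near 100 hide differences in fold enrichment, which ran from 16.3 to 27.5 at EBLN3P and from 14.1 to 24.6 at LINC01446. The order was not tested. CpG island-like windows and AP-1 letters both occurred among them. The window of LINC02226 had a CpG count of 0.89 of that expected, that of LINC01392 0.13 of that expected with AP-1 letters toward the edge of the printed sequence, and GNA15-DT and RDH10-AS1 carried AP-1 letters too.

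Well-known isolated lncRNA genes were then examined in fixed lists. Of 9 nuclear or abundant lncRNA genes found in the annotation, all were isolated and all had a region in 8 lists. FIRRE, an X-linked lncRNA that organises nuclear architecture, lay between percentiles of 98.3 and 99.6. DANCR lay between 84.5 and 97.7, JPX between 90.3 and 97.3, KCNQ1OT1, an imprinted antisense transcript within KCNQ1, between 75.6 and 93.5, and CYTOR between 66.7 and 89.9. MALAT1, an abundant RNA of nuclear speckles, lay between 55.9 and 84.1, MIAT between 6.12 and 64.8, and NEAT1, the scaffold of paraspeckles, between 0.245 and 50.5. NEAT1 thus had a region in all 8 lists with a fold enrichment of only 1.95 to 2.62.

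NORAD, a lncRNA that binds Pumilio proteins and is linked to genome stability, had WT percentiles of 89.1 and 93.9 when unchallenged and of 85.6 and 80.2 post UV. Its percentiles in ASH1L-/- cells were 94.0 and 93.5 unchallenged and 84.6 and 84.7 post UV. All 4 UV values were below the 4 unchallenged values, by 8.82 ± 1.77 points (SE), but the difference did not pass the test across all promoters (adjusted p = 0.105, limma). A fall without overlap was common, at 20.8% of all promoters with a region in all 8 lists. The median UV difference of the nuclear or abundant list was -3.31 points, against -2.77 for all 14451 promoters with a region in all 8 lists. Of its 9 members 0 were called, against 0.118% of all 14451, a share at which 9 members say little.

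Of the 10 annotated genes of a p53 and DNA damage list, 5 were isolated, and 3 of these had a region in all 8 lists, namely NEAT1, NORAD and PURPL. PURPL, a p53-induced lncRNA, lay between 67.0 and 88.3 with a UV difference of 1.41 ± 3.36 points (SE, adjusted p = 0.818, limma). PINCR, also p53-induced, had a region in 6 lists, at 37.4 and 63.5 in WT cells post UV and between 77.5 and 90.7 in the 4 ASH1L-/- libraries, and in neither unchallenged WT list. MIR34AHG, the host gene of the p53 target microRNA miR-34a, had 0. Of 13 isolated genes of a cancer list, LUCAT1, PVT1 and LINC00461 had a region in all 8 lists, UCA1, LINC01116, MEG3 and LINC00511 in some, and H19, DLEU2, LINC-ROR, CASC15, DLX6-AS1 and MIR31HG in 0. LUCAT1 carried AP-1 letters and lay between 73.0 and 88.0. PVT1, the neighbour of MYC, lay between 35.0 and 75.9.

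Host genes of small nucleolar RNAs, which guide modification of ribosomal RNA, mostly had a region. Of 18 isolated members, 14 (77.8%) had a region in all 8 lists, SNHG7 in 5 at percentiles of 3.39 to 34.5, and SNHG12, SNHG14 and SNHG27 in 0. SNHG29, SNHG30, SNHG25 and EPB41L4A-AS1 stayed between 89.5 and 99.6. Lower were SNHG26 at 37.3 to 76.7, SNHG28 at 62.8 to 84.8 and SNHG17 at 63.2 to 85.2. SNHG15 lay between 97.5 and 99.2 in unchallenged cells and between 91.3 and 95.4 post UV, without overlap, but with an adjusted p of 0.126 (limma). Lower values after UV without overlap were found at 20.8% of all promoters with a region in all 8 lists. Of 72 isolated microRNA host genes, 19 (26.4%) had a region in all 8 lists and 35 in none. MIRLET7IHG, a host of a let-7 microRNA, was the highest of these at 91.0 to 99.0. The median UV difference was -4.55 points for the 14 snoRNA hosts and -5.01 for the 19 microRNA hosts. In either direction, 0 of the snoRNA hosts and 0 of the microRNA hosts were called. Only 0.118% of all promoters with a region in all 8 lists were called, so lists of this size say little.

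The study asked whether UV and ASH1L change access to chromatin. The number of isolated promoters with a region was 3128 and 3333 for WT without UV, 3191 and 3411 for WT after UV, 3631 and 3137 for ASH1L-/- without UV, and 3363 and 3695 for ASH1L-/- after UV. The unchallenged and the UV values overlapped, and so did the WT and the ASH1L-/- values. The UV difference was 0.05 on the log2 scale (exact permutation over 70 assignments of 4 and 4 libraries, two-sided, p = 0.429, adjusted p = 0.771 over the 9 tests of the design). The genotype difference, ASH1L-/- minus WT, was 0.08 (p = 0.257, adjusted p = 0.771, same exact test), and the contrast of the UV differences, WT less ASH1L-/-, was -0.03 (p = 0.886, adjusted p = 0.886). The exact test cannot give a p below 0.0286.

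The share of isolated promoters with a region, divided by that of protein-coding promoters, was between 0.363 and 0.407. Its UV difference was -0.01 (log2, exact permutation p = 0.686, adjusted p = 0.771), its genotype difference 0.07 (p = 0.143, adjusted p = 0.643) and its UV by genotype contrast -0.03 (p = 0.629, adjusted p = 0.771). When all lists were reduced to the same number of regions, the UV difference in number became 0.08 and the genotype difference in the ratio 0.04, each with an unadjusted p of 0.0286, the smallest the exact permutation test can give. The genotype difference in the ratio also reached p = 0.0286 without replicate 2 of unchallenged ASH1L-/- cells and p = 0.0476 without replicate 1 of ASH1L-/- cells post UV (exact permutation).

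The mean percentile over the 2020 isolated promoters was 82.8 and 83.9 for WT without UV, 80.3 and 79.1 for WT after UV, 86.0 and 80.6 for ASH1L-/- without UV, and 80.5 and 83.5 for ASH1L-/- after UV. These values are a description over the members and carry no test. The mean after UV was 2.50 points lower, and the 4 and 4 values overlapped. Relative to protein-coding promoters of the same lists, whose percentiles were between 80.1 and 89.3, the difference turned to 1.05 points higher. The genotype difference of 1.11 points higher in ASH1L-/- cells became -0.27 in that comparison.

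Presence separated the libraries completely at few isolated promoters. At 57 of them (0.394%) a region was found in all 4 UV lists and in none of the 4 unchallenged lists, against 0.393% of all promoters, so that the share was close to the background. The reverse held for 9 (0.0623%, background 0.0413%). A region was found in all 4 ASH1L-/- lists and in no WT list at 37 (0.256%, background 0.238%), and in all 4 WT lists and in no ASH1L-/- list at 14 (0.0969%, background 0.0852%). Within WT cells alone, 213 isolated promoters gained a region in both UV lists and 84 lost it from both (1.47% and 0.581%, background 1.65% and 0.467%). Within ASH1L-/- cells the numbers were 247 and 120 (1.71% and 0.830%, background 1.8% and 0.622%). With 2 libraries against 2 these numbers have no test.

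A separation can also arise where the same region is called on both sides and reaches the window on one side only. Of the 57 promoters gained after UV, 43 had no region of the unchallenged lists over the same sequence, 6 had one in 1 to 3 lists and 8 in all 4. No such region was found for any of the 9 lost promoters. Of the 37 promoters of ASH1L-/- cells, 1 had such a region, and 11 of the 14 of WT cells had none. Of the 57 regions, the mean percentile over the UV lists ranged from 13.1 to 96.8 with a median of 49.3, and 5 were in the top quartile of all 4 lists. LINC01036, an intergenic gene on chromosome 1 with its TSS at position 187070700, had percentiles of 75.7 and 75.4 in WT and 66.5 and 75.1 in ASH1L-/- cells post UV. The 4 summits lay within 27 bp of each other, the AP-1 letters printed above stood to one side of them, and the unchallenged lists held no region over them. OSBPL10-AS1, an antisense gene in an intron of OSBPL10, had the highest percentiles after UV, at 97.7 and 98.8 in WT and 94.8 and 95.6 in ASH1L-/- cells. Its region was, however, called in all 4 unchallenged lists too, at percentiles of 63.9 to 92.0, and its summit lay 862 bp downstream of the TSS, so that only the wider regions after UV reached the window. PELATON and LNCATV likewise had a region in the 4 unchallenged lists outside the window. LINC01707, LINC02359, NPEPPSP1, KIAA2012-AS1, TBL1XR1-AS1 and MAP3K5-AS1 had none, with percentiles between 32.6 and 79.9 after UV. TBL1XR1-AS1 and MAP3K5-AS1 start in introns of TBL1XR1 and MAP3K5 on the opposite strand and carried AP-1 letters.

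The named promoters lost after UV were weak. RXYLT1-AS1 had percentiles of 6.04 and 61.6 in unchallenged WT and 5.86 and 64.1 in unchallenged ASH1L-/- cells, LINC01854 lay between 15.6 and 41.2, and LINC01522 between 0.262 and 54.6. Their low percentiles place several of these regions near the threshold of the lists. At a q-value below 0.05, 4 promoters were lost in place of 9, and with equal numbers of regions 5.

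ZNF876P, a zinc finger pseudogene with its TSS on chromosome 4 at position 212610, had percentiles of 92.0 and 93.1 in unchallenged and 97.7 and 95.6 in UV-irradiated ASH1L-/- cells. No WT list held a region over its sequence. The 4 summits were within 7 bp of each other, and that of the strongest region lay 53 bp downstream of the TSS. Also found in ASH1L-/- cells only were LINC00540, LINC00665, LINC01315, LINC01674 and LINC02952, at percentiles of 59.4 to 88.4, again without a WT region over the same sequence. LINC01194 had percentiles of 90.7 and 95.9 in unchallenged WT and 94.6 and 88.7 in WT cells post UV, and no ASH1L-/- list held a region there. LINC00327 was the other named gene of WT cells, at 28.2 to 90.9, but the ASH1L-/- lists held a region over the same sequence beyond its window in all 4 cases.

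AP-1 letters near the summit were commoner at isolated than at protein-coding promoters. They stood in the 300 bases around it at 429 (21.2%) of the 2020 isolated promoters with a region in all 8 lists and at 5.04% of such protein-coding promoters, and at 21.6% of every 20th region of the lists taken over the whole genome. Among promoters without a CpG island-like window the shares were 30.2% (395 of 1307) for isolated and 13.1% (248 of 1899) for protein-coding genes. Of the isolated promoters that separated the libraries, 20 of 57 gained after UV (35.1%), 0 of 9 lost after UV, 2 of 37 found in ASH1L-/- cells only (5.41%) and 5 of 14 found in WT cells only (35.7%) held the letters. These shares were not tested, because members and groups were described after the calls.

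The percentile of isolated promoters with AP-1 letters was higher relative to the others after UV. Over isolated promoters without a CpG island-like window and with a region in all 8 lists, the mean percentile with minus without the letters was 2.59 and 2.76 points in unchallenged WT cells and 1.86 and 1.45 in unchallenged ASH1L-/- cells. After UV it was 7.06 and 6.16 points in WT and 5.84 and 4.86 in ASH1L-/- cells. The 4 UV values did not overlap the 4 unchallenged values, with means of 5.98 ± 0.905 and 2.16 ± 0.618 points (SD, n = 4 each). The mean percentile with the letters was 83.4 without and 84.1 after UV, and that without the letters was 81.3 and 78.2. At protein-coding promoters of the same kind the difference was -3.13 ± 1.51 points without and 1.01 ± 1.09 after UV (SD, n = 4 each), also without overlap and in the same direction. At such promoters of lncRNA genes within 5 kb it lay between -7.05 and -3.89 points without and between -4.21 and -2.28 after UV, and these values overlapped. These means are descriptions over members and carry no test. The letters were read at the summit of the library with the highest percentile. The split by letters is therefore not independent of the UV difference.

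**Figure D4:**
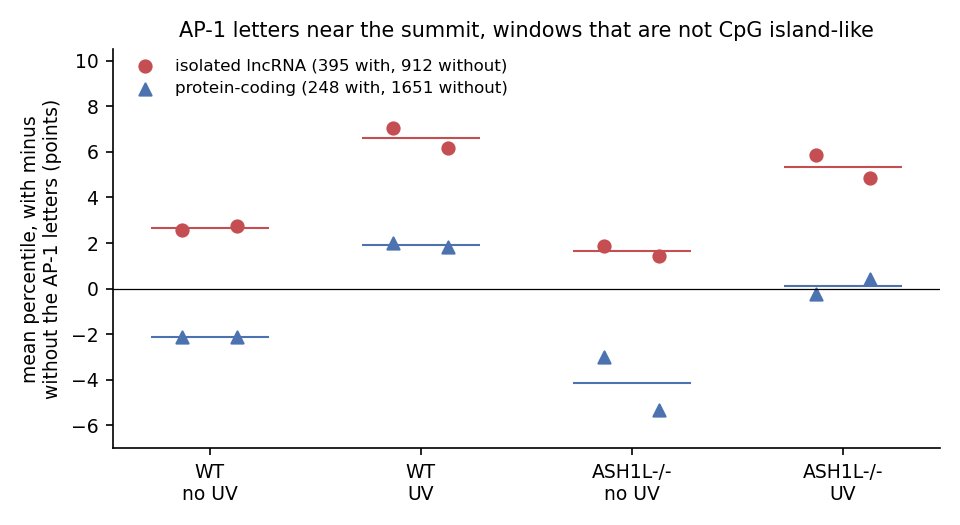
Mean percentile of promoters with AP-1 letters in the 300 bases around the summit minus that of promoters without them (percentile points, y axis) in each library, by group (x axis), for promoters without a CpG island-like window and with a region in all 8 lists; lines are means of 2 libraries. The isolated promoters lie between 1.45 and 2.76 points without UV and between 4.86 and 7.06 after it, and protein-coding promoters shift in the same direction.

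Strength at the 2020 promoters with a region in all 8 lists was compared by limma on the percentiles, fitted with 14451 promoters of all classes. After UV 4 isolated promoters fell and 0 rose at an adjusted p below 0.05, against a background of 0.104% falling and 0.0138% rising over all 14451. At an unadjusted p below 0.05, 372 fell (18.4%, background 21.8%) and 103 rose (5.10%, background 1.92%). The genotype difference and the UV by genotype contrast gave 0 calls each (background 0% for both, limma). At an unadjusted p below 0.05, 138 promoters were higher in ASH1L-/- cells (6.83%, background 5.12%) and 68 lower (3.37%, background 1.58%). The contrast was positive at 15 (0.743%, background 0.72%) and negative at 77 (3.81%, background 2.57%). All 4 UV percentiles were below the 4 unchallenged ones at 296 isolated promoters (14.7%, background 20.8%) and above them at 88 (4.36%, background 1.4%). All 4 ASH1L-/- percentiles were above the 4 WT ones at 62 (3.07%, background 1.85%) and below them at 32 (1.58%, background 0.803%). The median UV difference was -2.18 points over the isolated and -2.77 over all promoters with a region in all 8 lists. The number of calls depended on the scale. On the logit of the percentile, which expands differences near the ends, 53 isolated promoters rose and 94 fell (2.62% and 4.65%, background 0.727% and 6.17%). Without replicate 1 of WT cells post UV, 313 were called, 19 up and 294 down (0.925% and 14.3%, background 0.467% and 22.4%), whereas the fits without 1 of the other libraries gave between 0 and 5.

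The 4 called promoters are named because they are few, after their values were seen. LINC01836 and ENSG00000272473 start on opposite strands of chromosome 19 at positions 782755 and 782651 and share 1 region. The TSSs lay 14320 and 14424 bp from that of PTBP1, a regulator of splicing. Its percentiles were 88.6 and 83.2 for WT without UV, 52.6 and 47.5 for WT after UV, 87.6 and 86.2 for ASH1L-/- without UV and 53.3 and 58.8 for ASH1L-/- after UV. Both genotypes thus had high values without and intermediate values after UV, with a difference of -33.3 ± 2.19 points (SE, adjusted p = 0.025, limma). ENSG00000270302, at position 152309983 of chromosome 4, had 87.0 and 90.5 in unchallenged WT, 64.1 and 58.8 in WT post UV, 96.7 and 95.2 in unchallenged ASH1L-/- and 55.1 and 48.0 in ASH1L-/- cells post UV. Its difference was -35.9 ± 2.25 points (SE, adjusted p = 0.025, limma). ENSG00000273110, at position 154480012 of chromosome 1 and antisense to an exon of SHE, fell by 15.6 ± 1.28 points (SE, adjusted p = 0.046, limma), from 78.1 to 86.2 without UV to 63.9 to 71.1 after it. On the logit scale this call was lost (adjusted p = 0.0664, limma). The fold enrichment of ENSG00000273110, which was not normalised, overlapped, at 4.0046 to 8.82 without UV and 4.71 to 7.78 after it. The fall is therefore one of rank within the lists. At the other called promoters the fold enrichment did not overlap. It was 5.97 to 8.34 without and 3.75 to 4.78 after UV at LINC01836 and ENSG00000272473. At ENSG00000270302 it was 7.74 to 12.3 and 3.41 to 6.26. The regions remained in all 8 lists. Each of the 4 lost its call in 7 of the 8 fits without 1 library, and their differences then ranged from -37.6 to -14.6 points.

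**Figure D5:**
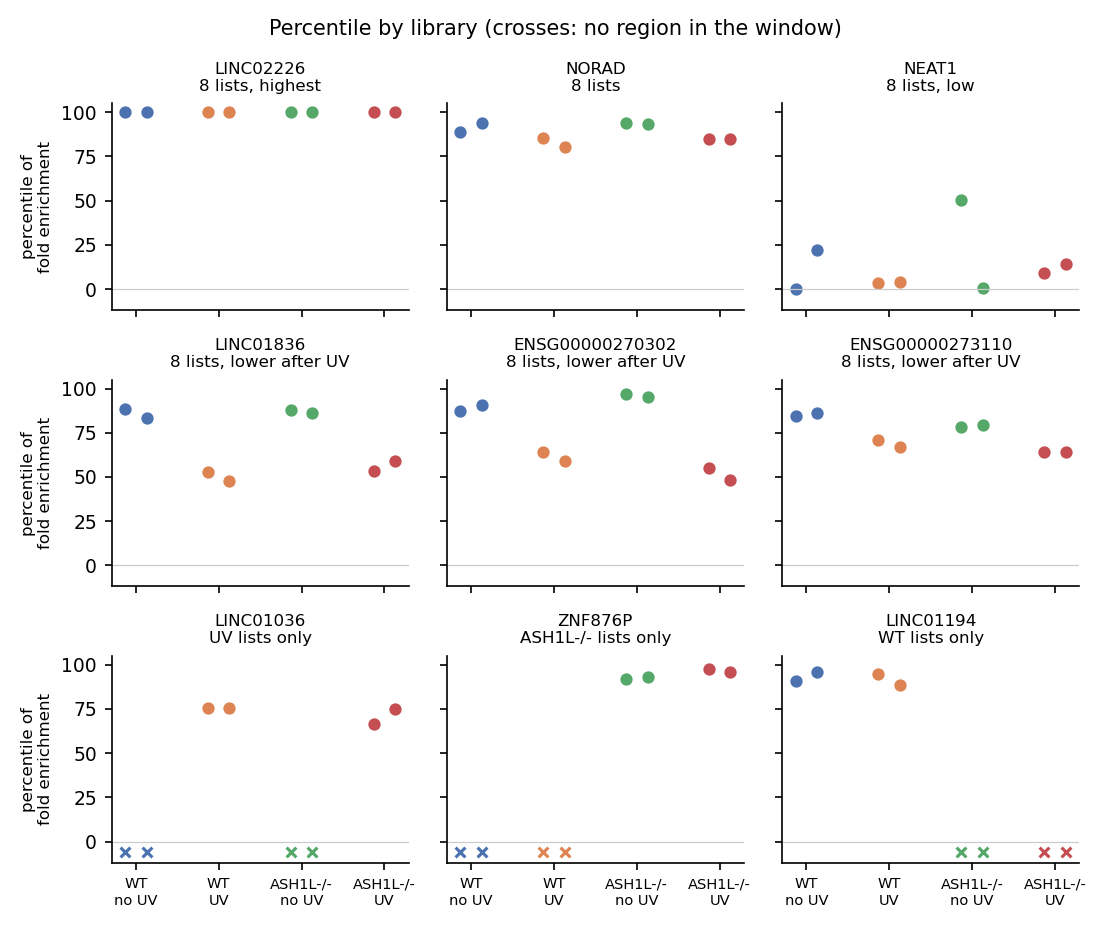
Percentile of fold enrichment within each list (y axis) at 9 isolated lncRNA promoters in the 4 groups (x axis), with a point for each library and a cross where the list held no region in the window. LINC01836, ENSG00000270302 and ENSG00000273110 are lower in all 4 UV libraries, while LINC01036, ZNF876P and LINC01194 have a region on one side only.

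Among genes with a symbol, the 10 promoters with the largest UV differences by size were listed, and of these LINC01836 was called on the percentile scale. Genes without a symbol, such as ENSG00000270302 and ENSG00000272473 above, were not ranked. On the logit scale, 8 passed the test, all but NPAS2-AS1 and LINC03044 (adjusted p between 0.00718 and 0.0455, limma). This count follows in part from the choice of the 10 by their UV difference in the same data. On that scale 7.28% of isolated and 6.89% of all promoters were called. LINC02741 and LINC01499, a divergent pair on chromosome 11, shared a region with percentiles of 74.4 to 91.5 without and 15.1 to 59.6 after UV, a difference of -44.9 ± 5.97 points (SE, adjusted p = 0.0721, limma). MIR7-3HG, a host gene of miR-7, went from 69.6 to 81.1 without UV to 18.6 to 60.6 after it (-34.9 ± 3.47 points, SE, adjusted p = 0.0545, limma). In the other direction, SLC30A4-AS1, with AP-1 letters in the 300 bases around the summit, had 11.4 to 74.1 without and 82.5 to 89.2 after UV (49.4 ± 13.8 points, SE, adjusted p = 0.141, limma). LINC02958 had 19.045 to 46.7 without and 62.0 to 83.9 after UV (35.7 ± 6.59 points, SE, adjusted p = 0.0969, limma). For these 5 genes, of which LINC02741 and LINC01499 share a region, the 4 and 4 values did not overlap. They were picked by their difference, and over all promoters with a region in all 8 lists 20.8% were lower and 1.4% higher after UV without overlap. LINC01348, NPAS2-AS1, LINC01638 and LINC03044 had still larger spreads between libraries of the same side. In 1 to 3 lists of each the strongest region had its summit within the window, and their summits spread over 673 to 982 bp, so that the libraries did not all use the same summit.

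The 6 largest genotype differences were taken among genes with a symbol. Of these, ENTPD1-AS1 lay between 76.7 and 90.3 in WT and between 40.5 and 67.0 in ASH1L-/- cells, and LINC02048 between 70.01 and 87.8 and between 2.56 and 49.7. DDX3ILA1 was higher in ASH1L-/- cells, at 81.8 to 91.2 against 41.5 to 60.0, and so was LINC02317, at 86.5 to 94.5 against 29.4 to 73.4. The 6 were picked by their difference. Over all promoters with a region in all 8 lists, 1.85% were higher and 0.803% lower in ASH1L-/- cells without overlap. The values of the genotypes did not overlap at ENTPD1-AS1, LINC02048, DDX3ILA1 and LINC02317. They overlapped at the other two, LINC00595 (31.4 to 70.7 in WT and 0.16 to 50.1 in ASH1L-/- cells) and LINC02255 (21.5 to 69.7 and 55.6 to 82.5). None of the 6 passed the test across all promoters (adjusted p between 0.359 and 0.762, limma).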

How the data were processed

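ATAC-seq of U2OS cells was carried out in 8 libraries, 2 biological replicates in each of 4 groups of genotype and UV treatment. Sample titles gave the group and the replicate number. Adapters were trimmed by the authors with cutadapt 1.9.1, and they aligned read pairs with Bowtie2 2.4.5 to hg38 without chromosome Y, filtered alignments with SAMtools 1.7, bedtools 2.29.2 and Picard, and called peaks with MACS2 2.2.7.1 in each library without pooling, with settings described as default. The deposited lists nevertheless reach a p-value of 0.00999, and between 77.4% and 94.2% of their regions, more after UV, had a q-value below 0.05, so presence includes weak regions. The deposited lists give, per summit, the fold enrichment, which is a ratio of pileup to local background, and, from the peak caller, −log10 of the p-value and of the q-value, together with a score and a summit offset. The score was not used. The deposited lists hold no read counts, so depth is known only as a relative mean pileup, which was solved from the fold enrichment and the p-value.

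Records that share an interval were joined into a region with the summit of highest fold enrichment. TSSs came from the gene records of GENCODE 44 and sequences from hg38. Motifs were searched on both strands in the window of 1 kb or in 300 bases around the summit. Numbers and ratios were compared by exact permutation tests, two-sided, over the 70 assignments of libraries to 4 and 4 (smallest p 0.0286), adjusted by Benjamini-Hochberg over 9 tests. These included 3 on the mean percentile, which are not printed because a score over members carries no test. Differences between promoter classes were tested by permuting signs over 8 libraries (smallest p 0.0078). Percentiles were fitted by limma 3.58.1 in R 4.3.3 over 14451 promoters with a region in all 8 lists, with an empirical Bayes variance over all 4 groups, and adjusted over all of them. Promoters shared regions, and these p-values measure the spread between 2 libraries per group. Other computations used Python 3.11.15. The programs were tested on simulated data.

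The members, gene lists and tests were chosen with earlier results of these data known. Named were the isolated members of fixed gene lists, the 10 promoters of highest mean percentile, up to 10 gained and 10 lost after UV and 6 found in each genotype only, the 10 largest UV and the 6 largest genotype differences, and 2 promoters on each side of the 5 kb limit, with unnamed genes counted only. XIST was left out. A marker gene and a promoter sequence are not reported here. Repeat masking and the read files were not analysed here.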

Additional observations from a re-analysis of the deposited data

Results flagged for a closer look

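A library that stood apart was sought in the number, ratio and mean percentile per library and at part of the named promoters with a region in all 8 lists. These were the promoters of highest mean percentile, those called or with the largest differences after UV, and the nuclear, p53 and cancer lists. Other host genes of small RNAs and the largest genotype differences were not examined for this. Of 84 sides of 4 libraries, 11 were marked because the gap of the outermost library to the next, divided by the range of the 4, exceeded Dixon's 95% critical value for 4 samples. Chance marks about 1 side in 20. Percentiles near 100 have a range of under 2 points, where a small gap is enough.

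Of the strongest promoters, LINC01409 was marked in unchallenged libraries (gap 0.897 of the range, 99.3 in replicate 2 of ASH1L-/- cells against 99.6 in the others) and MPP7-DT after UV (0.82904, 97.2 in replicate 2 of ASH1L-/- cells against 99.3 to 99.8). ANKRD20A11P was marked in unchallenged libraries (0.861, 99.59 in replicate 2 of WT cells against 99.77 to 99.8). LINC03021 was marked after UV (0.981, 99.67 in replicate 1 of WT cells against 99.99 and above). EBLN3P was marked in unchallenged libraries (0.987, 99.58 in replicate 1 of ASH1L-/- cells) and after UV (0.875, 98.5 in replicate 2 of WT cells).

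NORAD was marked in unchallenged libraries (0.903), where replicate 1 of WT cells had 89.1 and the others 93.5 to 94.0. DANCR was marked after UV (0.973), where replicate 2 of WT cells had 84.5 and the others 95.4 to 95.7. LINC01348 was marked in unchallenged libraries (0.929), where replicate 1 of WT cells had 85.5 and the others 2.11 to 7.99, and after UV (0.899), where replicate 2 of WT cells had 34.02 and the others 84.1 to 89.7. LINC01638 was marked in unchallenged libraries (0.978), where replicate 2 of WT cells had 8.30 and the others 94.5 to 96.4. In LINC01348 and LINC01638 the strongest region of the window changed between libraries, with summits spread over 845 and 982 bp, and the part of this in the marked values was not tested.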

How the results depend on the processing

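Over 154 values of the 18 main results under alternatives other than the omission of a library, 134 kept their direction, their side of the threshold, or, for counts, stayed within 1.5 times the main value. With equal numbers of regions per list, the UV difference in number was 0.0804, the genotype difference in the ratio 0.04 (unadjusted p = 0.0286 each, exact permutation) and the UV difference in mean percentile -1.69. The UV by genotype contrasts turned to 0.014 (number) and 0.00594 (ratio), and the UV difference in the ratio to 0.00875, or to 0.03 at a q-value below 0.05. Relative to protein-coding promoters, an alternative added after seeing the data, the mean percentile differences turned to 1.05 (UV), -0.27 (genotype) and 0.023 (contrast). Promoters lost after UV numbered 14 with windows of 1000 bp, 4 at a q-value below 0.05 and 5 with equal lists. UV calls by limma numbered 1 with equal lists, 0 with the replicate block, 147 on the logit scale and 120 with absent regions set to 0 (at least 4 lists). They numbered 2 with one promoter per shared region, where fewer promoters are tested. Of isolated promoters, 0.0501% were called with equal lists, 0% with the block, 7.28% on the logit scale and 0.107% with one promoter per shared region. The shares of all promoters in the same order were 0.0209%, 0%, 6.89% and 0.0707%. With absent regions set to 0 the genotype gave 72 calls and the contrast 3. In that setting the called shares were 3.80% (UV), 2.28% (genotype) and 0.0949% (contrast) of isolated promoters, against 1.81%, 0.945% and 0.0667% of all 17981 promoters. What causes these other shifts was not tested.

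Replicate numbers did not pair the samples, since the deviations of equal numbers correlated between -0.0744 and 0.0856. With the block, p was 0.5 (UV), 0.333 (genotype) and 0.889 (contrast) for the number and 0.722, 0.167 and 0.667 for the ratio (exact permutation within replicate numbers).

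Leaving out 1 library at a time gave UV, genotype and contrast values from -0.0058 to 0.0997, from 0.027 to 0.132 and from -0.137 to 0.074 for the number. They ran from -0.047 to 0.019, from 0.039 to 0.105 and from -0.098 to 0.034 for the ratio, and from -3.6 to -1.05, from -0.27 to 2.31 and from -4.99 to 0.42 for the mean percentile. The sign of the UV difference in number turned without replicate 2 of unchallenged ASH1L-/- cells, and that of the genotype difference in mean percentile without replicate 1. Promoters gained after UV numbered 66 to 89 (89 without replicate 2 of unchallenged WT cells), and lost 9 to 24 (22, 15 and 24 without replicate 1 of unchallenged WT and replicates 1 and 2 of unchallenged ASH1L-/- cells). Those of ASH1L-/- cells only numbered 43 to 70 (70 and 58 without unchallenged replicate 2 and UV replicate 1). Those of WT cells only numbered 16 to 22 (22 without UV replicate 1 of WT and UV replicate 2 of ASH1L-/- cells). In these counts of separating promoters, fewer lists had to meet the rule. They therefore cannot fall below the counts with all libraries, which were 57, 9, 37 and 14 in the same order. Their rise is thus no measure of dependence on single libraries. No share of all promoters under the same relaxed rule is given. UV calls by limma ranged from 0 to 313, and genotype and contrast calls from 0 to 1. A library left alone in its group is assumed to vary like the others. Depth is known only in relative terms, so weak regions missed at low depth could not be counted.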

Other observations

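Of the 1755 isolated promoters with a region in only 1 list, 331 had it in the deepest library, replicate 1 of unchallenged ASH1L-/- cells, and 286 and 265 in the 2 libraries of unchallenged WT cells. Replicate 2 of unchallenged ASH1L-/- cells held 212, ASH1L-/- cells post UV 171 and 222, and WT cells post UV 136 and 132. The lists of UV-irradiated WT cells thus held the fewest promoters of this kind. The median width of member regions was 484 and 549 bp in WT and 498 and 485 bp in ASH1L-/- cells post UV, against 435 to 456 bp in the 4 unchallenged lists. Over all regions of the lists it was 356 to 444 bp post UV and 242 to 291 bp without UV, so the widening was not particular to the members.

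On the logit scale, 0.727% of all 14451 promoters rose and 6.17% fell after UV, and of the isolated promoters 2.62% and 4.65%. The isolated promoters called after UV on that scale were divided by AP-1 letters near the summit. Of the 429 promoters with the letters 35 rose and 12 fell, and of the 1591 without them 18 rose and 82 fell. At protein-coding promoters the corresponding numbers were 22 and 11 of 520 with the letters and 22 and 646 of 9803 without them. This division was made after the calls were seen and was not tested. The letters were again read at the summit of the library with the highest percentile, so the division is not independent of the UV difference.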
